A study of Mus musculus with 25 samples.

Results

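The urea cycle and amino acid breakdown genes of hepatocytes were described here as a set of 45 members, the genes of 12 pathways named by symbol, out of 18668 genes in the hepatocyte count table. They were picked by their place in metabolism and not by a cut on measured values, but with earlier results of these data known. All 45 were found in the table through their Ensembl identifiers and passed the filter on low counts. RNA sequencing had been done on sorted mouse hepatocytes in 13 libraries of 5 groups, on a mixed C57BL/6J and 129SV background. The IL-6 STAT3KO group (3 libraries) came from floxed Stat3 mice given AAV-TBG-Cre 2 weeks and an IL-6 plasmid 1 week before, and the IL-6 group (3 libraries) from wild-type mice with the IL-6 plasmid for 1 week. The DDC STAT3KO group (3 libraries) came from floxed Stat3 mice given AAV-TBG-Cre 2 weeks before and a DDC diet for 1 week. The DDC group (2 libraries) came from floxed mice given AAV-TBG-GFP 2 weeks before and the same diet for 1 week. The GFP group (2 libraries) came from wild-type mice with a GFP plasmid for 1 week. Plasmids were delivered by hydrodynamic injection, which forces them into hepatocytes, TBG is a hepatocyte promoter, and DDC is a porphyrin-forming compound that injures bile ducts and hepatocytes.

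Several limits follow from these groups. Genotype and virus differed together with the Stat3 deletion between IL-6 STAT3KO and IL-6 mice, and diet, genotype, virus and plasmid differed between DDC and GFP mice, so these cannot be told apart. An uninjured floxed group was not analysed here. The labels do not say that replicates were separate animals, so p-values measure the spread between these libraries. In a bulk sample, fewer cells of a type and less RNA per cell cannot be told apart.

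Amino acids that are not used for protein are stripped of their nitrogen in the liver, and hepatocytes of the periportal zone turn the resulting ammonia into urea through a cycle of mitochondrial and cytosolic enzymes. The carbon skeletons are broken down in separate routes for tyrosine, tryptophan, methionine, glycine, serine, histidine, proline, lysine and the branched-chain amino acids. Most of these enzymes mark the mature hepatocyte. IL-6 signals through gp130 to STAT3, the factor that drives the acute phase response of hepatocytes.

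Library totals ran from 13625040 to 18428988 counts. Levels are given as CPM, counts per 1000000 counts of a library after scaling by trimmed mean of M-values. Calls were made with edgeR's quasi-likelihood test over 14339 genes at an adjusted p (Benjamini-Hochberg) under 0.05, and all folds are on the log2 scale. Stat3, a check on the labels, stood at 116, 96.0 and 116 CPM in IL-6 STAT3KO, at 340, 351 and 424 CPM in IL-6, at 62.1, 56.3 and 87.3 CPM in DDC STAT3KO, at 150 and 112 CPM in DDC and at 109 and 98.9 CPM in GFP. It was lower in IL-6 STAT3KO than in IL-6 (log2 fold change -1.77), but not called different from GFP (0.07, adjusted p = 0.903), while the difference of -0.94 between DDC STAT3KO and DDC was not called (adjusted p = 0.853). The sum of the hepatocyte markers (8 of 8 detected) was high in every library. It was 92233 to 158767 CPM in IL-6 STAT3KO, 32829 to 133552 CPM in IL-6 and 91946 to 119047 CPM in DDC STAT3KO. In DDC it was 98090 and 85224 CPM, and in GFP 85705 and 85874 CPM. Single markers differed widely, with Tf at 13.9 to 93.9 CPM and Alb at 6388 to 123018 CPM over the hepatocyte libraries.

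Libraries stood apart within 2 groups. IL-6 replicate 3 held 486 CPM of the EGFP transgene, where IL-6 replicates 1 and 2 held 9.24 and 5.73 CPM, and it had 6388 CPM of albumin (Alb), where those replicates had 84156 and 33886 CPM. DDC STAT3KO replicate 3 lay above both other replicates of its group for 39 of 45 members, with a median log2 ratio of 0.60 over the members and of -0.04 over all genes. Its summed Kupffer cell markers (7 of 7 tested) were at 43.0 CPM, against 270 and 326 CPM in the other DDC STAT3KO libraries. Kupffer cell marker sums ran from 100 to 235 CPM in IL-6 STAT3KO, from 67.4 to 151 CPM in IL-6, were 229 and 376 CPM in DDC, and were 23.7 and 29.6 CPM in GFP. Macrophage and monocyte markers summed to 28.3 to 104 CPM in IL-6 STAT3KO, 34.2 to 43.4 CPM in IL-6, 23.0 to 179 CPM in DDC STAT3KO, 97.1 and 173 CPM in DDC, and 10.3 and 18.1 CPM in GFP. The cholangiocyte list (4 of 7 in the table), dominated by Spp1, summed to 12.9 to 52.3 CPM in IL-6 STAT3KO, 2121 to 10668 CPM in IL-6, 11.3 to 256 CPM in DDC STAT3KO, 503 and 564 CPM in DDC, and 12.3 and 13.3 CPM in GFP. Stellate markers (6 of 6) summed to 53.7 to 177 CPM in IL-6 STAT3KO, 54.0 to 116 CPM in IL-6, 90.6 to 281 CPM in DDC STAT3KO, 201 and 326 CPM in DDC, and 78.6 and 66.6 CPM in GFP. Neutrophil markers (4 of 6 in the table) summed to 1.06 to 18.9 CPM in IL-6 and to at most 2.45 CPM in any other library. Mitochondrially encoded genes took 4.16 to 5.92% of counts in IL-6 STAT3KO, 2.05 to 2.76% in IL-6, 2.03, 5.38 and 5.26% in DDC STAT3KO, and 5.21 to 5.60% in DDC and GFP. T and B cell markers (0 of 6) were not in the hepatocyte table. These sums and shares moved with the groups, and their part in the member results was not tested.

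The 45 members made up 4.51, 4.33 and 3.41% of all counts in IL-6 STAT3KO hepatocytes and 1.31, 1.36 and 1.64% in IL-6 hepatocytes. In the DDC arm they made up 1.89, 2.37 and 3.25% in DDC STAT3KO and 2.20 and 1.89% in DDC, and in GFP hepatocytes 3.64 and 4.33%. By these unscaled shares the IL-6 libraries were the lowest of all 13, and IL-6 STAT3KO and GFP libraries covered overlapping ranges. Summed after scaling, the members reached 45195, 44436 and 34696 CPM in IL-6 STAT3KO, 17030, 15440 and 18786 CPM in IL-6, and 37339 and 43834 CPM in GFP. The sums were 16690, 19355 and 33112 CPM in DDC STAT3KO and 19944 and 15527 CPM in DDC, where replicate 3 of DDC STAT3KO lay apart from the other libraries on the diet. After scaling the IL-6 libraries were thus no longer the lowest as a group, and their sums overlapped those of DDC and DDC STAT3KO.

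**Figure D1:**
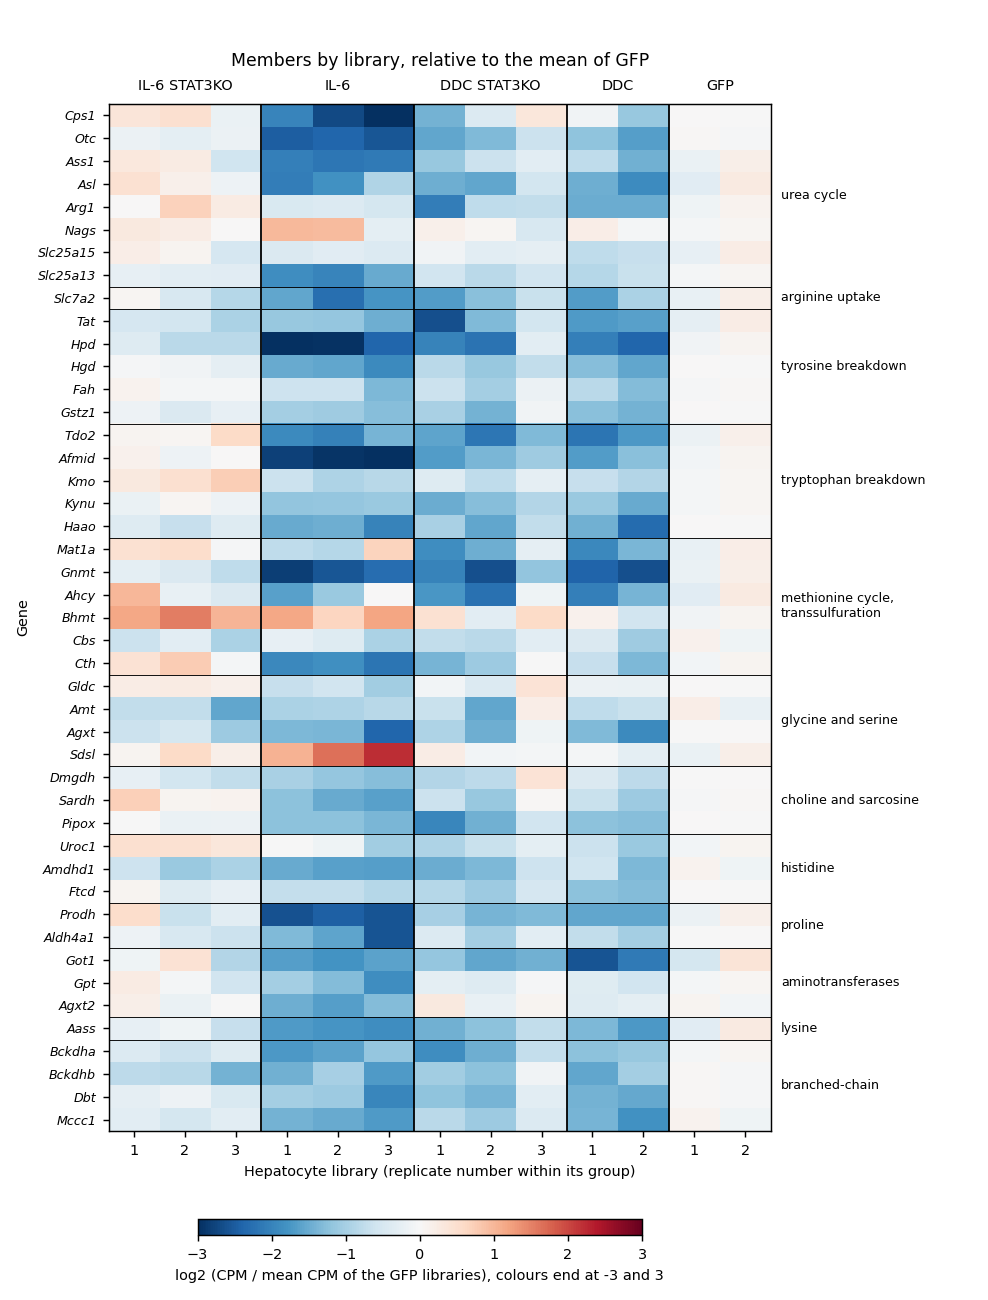
Log2 ratio of each member's CPM to its mean in GFP hepatocytes, for 45 members (rows, by pathway) in 13 libraries (columns, by group, with IL-6 STAT3KO and IL-6 at the left and GFP at the right). Colours end at -3 and 3. The IL-6 columns are below GFP for most rows, Bhmt and Sdsl are above it, and replicate 3 of DDC STAT3KO is nearer to GFP than its other replicates.

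Per kilobase of exon, the order of the members also differed among groups. IL-6 STAT3KO hepatocytes had Gnmt (1697 CPM per kb), Ass1 (1691 CPM per kb) and Cps1 (1235 CPM per kb) at the top, while IL-6 hepatocytes had Mat1a (706 CPM per kb), Arg1 (651 CPM per kb) and Tat (540 CPM per kb). In GFP hepatocytes the highest mean levels were those of Gnmt (2378 CPM per kb), Ass1 (1638 CPM per kb), Tat (1287 CPM per kb) and Cps1 (1042 CPM per kb). The lowest members in each of the 5 groups were Afmid and Mccc1, at 0.999 and 1.61 CPM per kb in IL-6 and at 8.12 and 4.7 CPM per kb in GFP.

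In IL-6 hepatocytes 34 of 45 members were lower and 2 were higher than in GFP hepatocytes. Of all genes tested, 12.2% were called lower and 13.7% higher in that comparison. The median log2 fold change was -1.45 over the members and 0.04 over all genes. Without GFP replicate 2, the library whose removal moved the count most, 22 members in all were called in place of 36. The share of all genes called in that reduced fit is not given here. The levels of 39 members lay lower in all 3 IL-6 libraries than in both GFP libraries, which 29.2% of all genes tested did.

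In IL-6 STAT3KO hepatocytes 30 members were higher and 1, Sdsl, was lower than in IL-6 hepatocytes. Among all genes tested 13% were called higher and 13.4% lower, and the median log2 fold change was 1.15 over the members and 0.00 over all genes. All 3 IL-6 STAT3KO libraries lay above all 3 IL-6 libraries for 36 members, which held for 22.0% of genes tested, and all 3 lay below for 1 member, Sdsl, as for 22.9% of genes tested. This comparison shares the IL-6 libraries with that of IL-6 over GFP, so the values of each member in both are given side by side below and are not independent.

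IL-6 STAT3KO hepatocytes were also set against GFP hepatocytes directly. In that comparison 0 of 45 members were called higher and 0 lower by edgeR, with 2.26% and 0.865% of all genes called in those directions. At an unadjusted p under 0.05 there were 5 members, with the share of all genes at that cut not given here. DESeq2 called 1 higher (Bhmt) and 1 lower (Amdhd1). All 3 IL-6 STAT3KO libraries lay below both GFP libraries for 18 members and above both for 5 (Kmo, Bhmt, Gldc, Sardh and Uroc1), which 22.4% and 22.2% of all genes tested did. The median of the members was -0.10, with single log2 fold changes between -0.98 and 1.25. Bckdhb, a subunit of the branched-chain keto acid dehydrogenase, had the lowest value and Bhmt the highest.

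**Figure D2:**
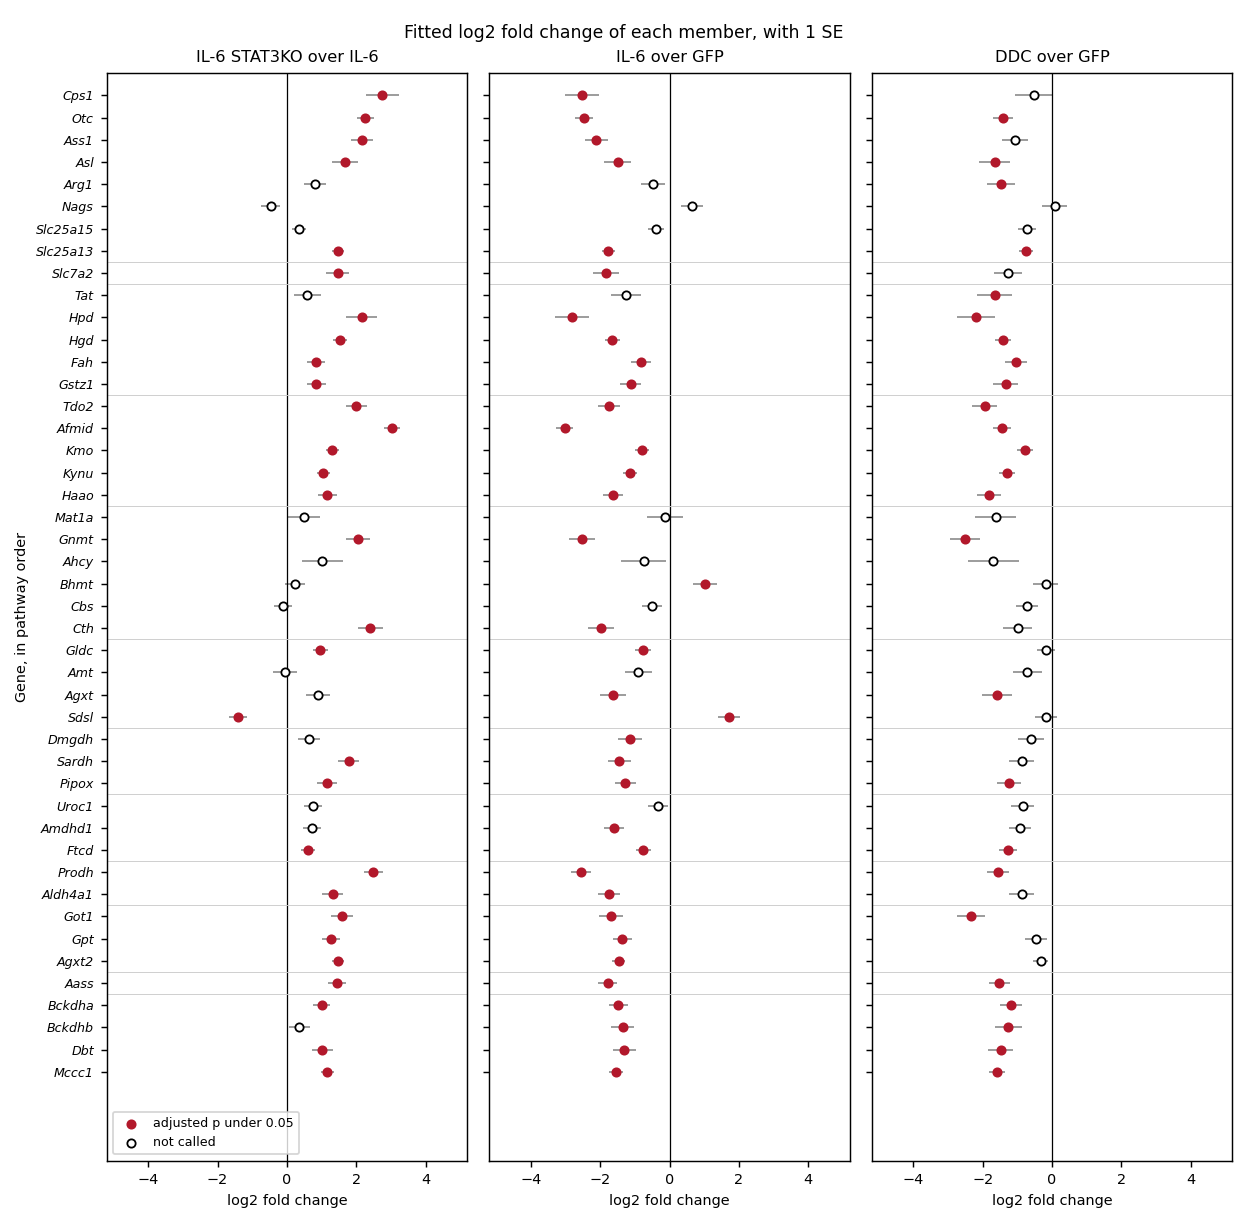
Log2 fold change of each of 45 members, with bars of 1 SE, for IL-6 STAT3KO over IL-6, IL-6 over GFP and DDC over GFP. Red points had an adjusted p under 0.05 in edgeR's quasi-likelihood test, and open points did not. Afmid has the largest size of change in the first 2 panels (3.02 and -3.02), and the third panel has no member called higher.

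Of the 8 urea cycle genes 5 rose in IL-6 STAT3KO over IL-6 hepatocytes and 5 fell in IL-6 over GFP hepatocytes: Cps1, which makes carbamoyl phosphate, Otc, Ass1, Asl and the mitochondrial aspartate-glutamate carrier Slc25a13. Cps1, given here after its values were seen, stood at 7389, 8144 and 5045 CPM in IL-6 STAT3KO, 1456, 888 and 708 CPM in IL-6, and 5870 and 5710 CPM in GFP. All IL-6 libraries lay below the other 2 groups by a wide gap. For Cps1 the log2 fold change was 2.75 (SE 0.47, adjusted p = 0.00115) for IL-6 STAT3KO over IL-6 and -2.51 (SE 0.49, adjusted p = 0.00314) for IL-6 over GFP. On the DDC diet Cps1 varied widely, at 2184, 4366 and 7350 CPM in DDC STAT3KO and 5399 and 2653 CPM in DDC, and those groups overlapped.

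Otc, which joins carbamoyl phosphate to ornithine, was tighter between replicates. It stood at 549, 509 and 549 CPM in IL-6 STAT3KO, 112, 119 and 105 CPM in IL-6, and 634 and 613 CPM in GFP. The 3 groups did not overlap, and IL-6 STAT3KO was close under GFP. For Otc the log2 fold change was 2.26 (SE 0.24, adjusted p = 5.38e-05) for IL-6 STAT3KO over IL-6 and -2.48 (SE 0.26, adjusted p = 7.29e-05) for IL-6 over GFP. Otc had 210, 250 and 401 CPM in DDC STAT3KO and 270 and 197 CPM in DDC, all below both GFP libraries.

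Slc25a13, which supplies aspartate to the cycle, had 280, 265 and 264 CPM in IL-6 STAT3KO, 90.9, 84.4 and 117 CPM in IL-6, and 317 and 346 CPM in GFP. Again the groups did not overlap. Slc25a13 had a log2 fold change of 1.47 (SE 0.17, adjusted p = 0.000103) for IL-6 STAT3KO over IL-6 and -1.76 (SE 0.19, adjusted p = 7.76e-05) for IL-6 over GFP. It was at 221, 188 and 221 CPM in DDC STAT3KO and at 184 and 208 CPM in DDC. Ass1, which condenses citrulline with aspartate, and Asl, which splits the product into arginine and fumarate, had log2 fold changes of 2.16 and 1.68 for IL-6 STAT3KO over IL-6 and of -2.11 and -1.50 for IL-6 over GFP. The call for Asl in IL-6 over GFP was lost without IL-6 replicate 1, IL-6 replicate 2 or GFP replicate 2 (adjusted p up to 0.151).

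The last step of the cycle missed the threshold in this arm. Arg1, which releases urea from arginine and is given here after its values were seen, had 2020, 3258 and 2391 CPM in IL-6 STAT3KO, 1453, 1513 and 1388 CPM in IL-6, and 1846 and 2161 CPM in GFP. The IL-6 libraries were the lowest of the 3 groups, but by far less than for Cps1 or Otc. Arg1 had a log2 fold change of 0.82 (SE 0.32, adjusted p = 0.0801) for IL-6 STAT3KO over IL-6 and -0.47 (SE 0.35, adjusted p = 0.357) for IL-6 over GFP. The first of these was called by DESeq2 (adjusted p = 0.0357), with the compared groups alone (adjusted p = 0.0335) and with total-count scaling (adjusted p = 0.0253). On the diet Arg1 had 477, 1176 and 1203 CPM in DDC STAT3KO and 717 CPM in each DDC library, and it was called lower in DDC than in GFP (-1.48, adjusted p = 0.0246), a call lost without any one of the 4 libraries of that comparison. Nags, which makes the activator of Cps1, and the ornithine carrier Slc25a15 were not called in any comparison. Without IL-6 replicate 3 Nags was called in IL-6 STAT3KO over IL-6 (-0.76, adjusted p = 0.0162), in IL-6 over GFP (0.96, adjusted p = 0.0104) and in IL-6 over DDC (0.90, adjusted p = 0.0239), as it was in IL-6 over GFP with a replicate block. Its levels were 107, 106 and 44.9 CPM in IL-6 and 52.4 and 56.9 CPM in GFP. Slc25a15 was called in DDC over GFP by DESeq2 (-0.72, adjusted p = 0.0208) and with the compared groups alone. Nags also shares 15.6% of its exon length with Gm11586, which had 0 counts.

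Slc7a2, the carrier that brings arginine and other cationic amino acids into the cell, went with the cycle. It had 1386, 945 and 734 CPM in IL-6 STAT3KO, 447, 278 and 386 CPM in IL-6, and 1145 and 1507 CPM in GFP. The IL-6 libraries lay below the others, which overlapped. The log2 fold change was 1.46 (SE 0.34, adjusted p = 0.00734) for IL-6 STAT3KO over IL-6 and -1.84 (SE 0.37, adjusted p = 0.0035) for IL-6 over GFP. In DDC STAT3KO it had 416, 559 and 836 CPM and in DDC 414 and 689 CPM, below GFP in each library, and the comparison of DDC with GFP missed the threshold (-1.27, adjusted p = 0.0502).

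**Figure D3:**
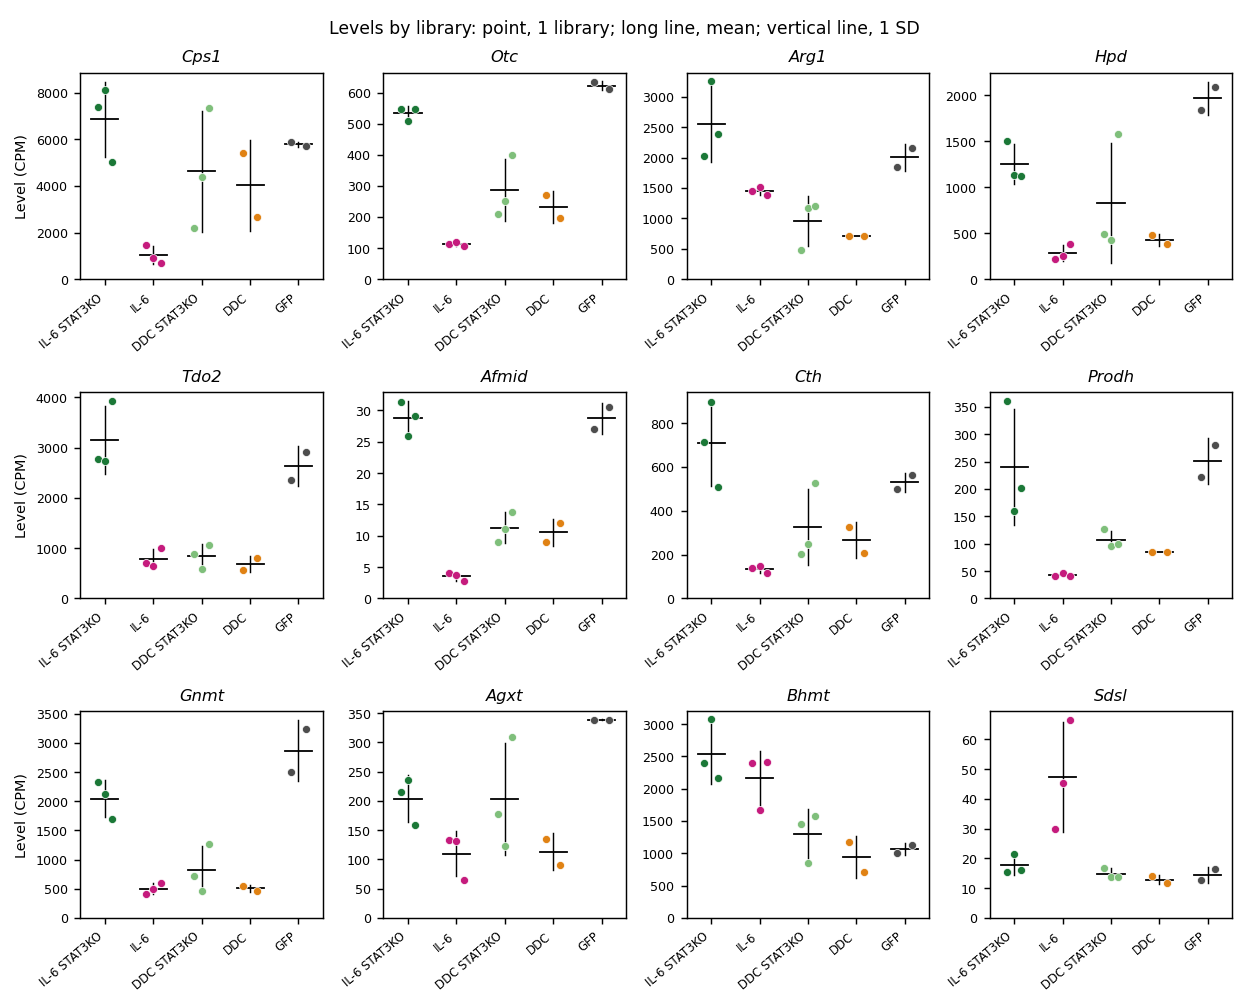
CPM of 12 members in each library (points), with the group mean and 1 SD (bars), for IL-6 STAT3KO (3), IL-6 (3), DDC STAT3KO (3), DDC (2) and GFP (2). Cps1, Otc, Hpd, Afmid, Cth, Prodh and Gnmt are low in all IL-6 libraries, whereas Sdsl is highest in them and Arg1 differs less. The third DDC STAT3KO library is the highest of that group for Cps1, Otc and Hpd.

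Tyrosine is broken down by Tat, Hpd, Hgd, Gstz1 and Fah in sequence. After Tat, all 4 enzymes rose in IL-6 STAT3KO over IL-6 and fell in IL-6 over GFP. Tat itself, the aminotransferase that starts the route, had log2 fold changes of 0.59 (adjusted p = 0.305) and -1.25 (adjusted p = 0.0528) in those comparisons and was called in neither, although DESeq2 (adjusted p = 0.018), the compared groups alone (adjusted p = 0.0094) and total-count scaling (adjusted p = 0.0173) called it in IL-6 over GFP. All 5 fell in DDC over GFP, with Tat at -1.66 (adjusted p = 0.0371). In that comparison the calls of all but Hgd were lost without any one of the 4 libraries.

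Hgd, which opens the ring of homogentisate, is shown with its promoter because its changes were among the most even across replicates and because its window held several of the motifs searched. The window of 300 bases runs from 250 before to 50 after the RefSeq start, on the plus strand at chr16:37579903-37580202 (GRCm38.p6). Capitals mark, on either strand, matches to TATAAA and to the C/EBP motif TTGCNNAA.

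Hgd: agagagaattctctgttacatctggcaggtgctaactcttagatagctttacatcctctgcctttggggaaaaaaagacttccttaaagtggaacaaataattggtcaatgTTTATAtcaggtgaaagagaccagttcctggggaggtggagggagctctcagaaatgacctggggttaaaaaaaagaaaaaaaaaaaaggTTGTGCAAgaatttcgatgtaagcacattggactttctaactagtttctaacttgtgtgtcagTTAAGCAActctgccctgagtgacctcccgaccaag

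Hgd stood at 601, 572 and 512 CPM in IL-6 STAT3KO, 215, 208 and 162 CPM in IL-6, and 618 and 609 CPM in GFP. IL-6 libraries lay far below both other groups. For Hgd the log2 fold change was 1.53 (SE 0.19, adjusted p = 0.000155) for IL-6 STAT3KO over IL-6 and -1.65 (SE 0.21, adjusted p = 0.000206) for IL-6 over GFP. Hgd had 348, 278 and 368 CPM in DDC STAT3KO and 253 and 208 CPM in DDC, with all DDC STAT3KO libraries above both DDC libraries and below GFP.

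Hpd, which makes homogentisate, had 1498, 1130 and 1124 CPM in IL-6 STAT3KO, 213, 251 and 380 CPM in IL-6, and 1835 and 2092 CPM in GFP. The 3 groups were separate. Its log2 fold change was 2.15 (SE 0.45, adjusted p = 0.00431) for IL-6 STAT3KO over IL-6 and -2.80 (SE 0.49, adjusted p = 0.00164) for IL-6 over GFP. In DDC STAT3KO it had 486, 421 and 1580 CPM, the third library standing apart, and in DDC 474 and 380 CPM. Fah and Gstz1 changed less, with 0.83 and 0.85 for IL-6 STAT3KO over IL-6 and -0.83 and -1.12 for IL-6 over GFP, and Gstz1 shares 9.14% of its exon length with Pomt2. Both lost their call in IL-6 STAT3KO over IL-6 without any one of its 6 libraries (adjusted p up to 0.109). In IL-6 over GFP Fah lost its call without any one library and Gstz1 without GFP replicate 1 or 2.

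Promoter windows were at hand for 35 of the 45 members (39 windows, RefSeq, GRCm38.p6) and for 32851 windows in all. The STAT motif TTCNNNGAA, searched on both strands, was in 8.30% of all windows and in those of 1 of 35 members, Prodh. TTGCNNAA was in 10.8% of all windows and in those of 3 members, Aass, Agxt2 and Hgd. TATAAA was in 13.6% of all windows and in those of 4 members, Agxt2, Ftcd, Hgd and Tdo2, and the HNF4 motif CAAAGTCCA in 0.475% of all windows and in those of 2 members, Agxt2 and Pipox. The motifs TGACGTCA, TGACGCAA and GTTAATNAT, in 1.79%, 0.490% and 0.801% of all windows, were in 0 member windows. These are matches of letters within 300 bases and say nothing of binding. Sdsl, Dbt, Kynu, Mat1a, Arg1, Gpt, Cps1, Slc7a2, Cth and Asl had no window in the table.

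All 5 tryptophan genes rose in IL-6 STAT3KO over IL-6 and fell in IL-6 over GFP, and all 5 fell in DDC over GFP. Afmid, which hydrolyses the product of Tdo2 to kynurenine, had the largest change of any member in the first 2 of these comparisons. It had 31.3, 25.9 and 29.1 CPM in IL-6 STAT3KO, 4.11, 3.76 and 2.75 CPM in IL-6, and 27.0 and 30.5 CPM in GFP. The ranges of IL-6 STAT3KO and GFP overlapped and IL-6 lay far below. For Afmid the log2 fold change was 3.02 (SE 0.23, adjusted p = 5.72e-06) for IL-6 STAT3KO over IL-6 and -3.02 (SE 0.24, adjusted p = 1.42e-05) for IL-6 over GFP. It had 8.96, 11.1 and 13.8 CPM in DDC STAT3KO and 9.01 and 12.1 CPM in DDC, between the IL-6 and the GFP levels. Afmid shares 2.35% of its exon length with Tk1 and 44.2% with Gm20708, which had 0 counts, and the strand setting of the counting is not given in the sources used here.

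Tdo2, the dioxygenase that opens the indole ring and is given here after its values were seen, had 2779, 2729 and 3932 CPM in IL-6 STAT3KO, 698, 651 and 1006 CPM in IL-6, and 2349 and 2918 CPM in GFP. Tdo2 had a log2 fold change of 2.00 (adjusted p = 0.000478) for IL-6 STAT3KO over IL-6 and -1.75 (adjusted p = 0.00204) for IL-6 over GFP. On the diet Tdo2 was low in both groups, at 874, 582 and 1056 CPM in DDC STAT3KO and 574 and 801 CPM in DDC. The IL-6 and DDC libraries overlapped (log2 fold change 0.19 for IL-6 over DDC, adjusted p = 0.754).

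Kynu, which cleaves kynurenine and hydroxykynurenine, had 213, 254 and 219 CPM in IL-6 STAT3KO, 108, 109 and 113 CPM in IL-6, and 235 and 254 CPM in GFP. The IL-6 libraries were close to each other and below all others of the arm. Kynu had a log2 fold change of 1.05 (SE 0.19, adjusted p = 0.00158) for IL-6 STAT3KO over IL-6 and -1.15 (SE 0.20, adjusted p = 0.00185) for IL-6 over GFP. It had 87.4, 101 and 132 CPM in DDC STAT3KO and 113 and 85.4 CPM in DDC. Kmo, which makes hydroxykynurenine, and Haao, which leads on toward NAD, changed by 1.31 and 1.16 for IL-6 STAT3KO over IL-6 and by -0.79 and -1.64 for IL-6 over GFP. The call for Kmo in IL-6 over GFP was lost without IL-6 replicate 2 or either GFP replicate (adjusted p up to 0.105).

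The methionine cycle and transsulfuration genes were divided. Gnmt, which uses up S-adenosylmethionine, and Cth, which releases cysteine, rose in IL-6 STAT3KO over IL-6 and fell in IL-6 over GFP, and Bhmt, which remethylates homocysteine with betaine, rose in IL-6 over GFP. Mat1a, Ahcy and Cbs were called in neither comparison. Gnmt had 2323, 2126 and 1691 CPM in IL-6 STAT3KO, 407, 487 and 593 CPM in IL-6, and 2499 and 3238 CPM in GFP. The 3 groups did not overlap, and the log2 fold change was 2.05 (SE 0.34, adjusted p = 0.000997) for IL-6 STAT3KO over IL-6 and -2.53 (SE 0.37, adjusted p = 0.000519) for IL-6 over GFP. DDC STAT3KO had 716, 458 and 1264 CPM of Gnmt and DDC had 544 and 461 CPM, and DDC over GFP was -2.51 (adjusted p = 0.00338).

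Cth stood at 714, 898 and 508 CPM in IL-6 STAT3KO, 139, 148 and 116 CPM in IL-6, and 498 and 561 CPM in GFP. The IL-6 libraries were far below both groups. Its log2 fold change was 2.40 (SE 0.36, adjusted p = 0.000515) for IL-6 STAT3KO over IL-6 and -1.98 (SE 0.38, adjusted p = 0.00284) for IL-6 over GFP. In DDC STAT3KO it was at 202, 249 and 526 CPM and in DDC at 326 and 208 CPM.

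Bhmt went against most members. It had 2392, 3074 and 2159 CPM in IL-6 STAT3KO, 2391, 1668 and 2419 CPM in IL-6, and 997 and 1134 CPM in GFP. Both groups with the IL-6 plasmid lay above GFP and overlapped each other. For Bhmt the log2 fold change was 1.02 (SE 0.34, adjusted p = 0.0434) for IL-6 over GFP and 0.24 (SE 0.29, adjusted p = 0.599) for IL-6 STAT3KO over IL-6. The first of these calls was lost in fits with no filter, with a replicate block and with total-count scaling, and without IL-6 replicate 1, IL-6 replicate 3, GFP replicate 1 or GFP replicate 2 (adjusted p up to 0.234 over all alternatives). Bhmt had 1459, 849 and 1578 CPM in DDC STAT3KO and 1169 and 716 CPM in DDC. Mat1a, which makes S-adenosylmethionine and is given here after its values were seen, had 3715, 3894 and 2627 CPM in IL-6 STAT3KO, 1587, 1501 and 4259 CPM in IL-6, and 2316 and 3082 CPM in GFP, the third IL-6 library being above all others of the arm. Without both that library and DDC STAT3KO replicate 3, which is outside this comparison, Mat1a was called higher in IL-6 STAT3KO than in IL-6 (1.16, adjusted p = 0.00867). That removal was chosen after seeing the data, and Mat1a was not called without IL-6 replicate 3 alone.

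Among glycine and serine genes, Sdsl, a homologue of serine dehydratase, was the other member called against the rest. It had 15.3, 21.6 and 16.2 CPM in IL-6 STAT3KO, 30.0, 45.4 and 66.6 CPM in IL-6, and 12.6 and 16.3 CPM in GFP. Every IL-6 library was above every other library of the study. The log2 fold change was -1.42 (SE 0.26, adjusted p = 0.00202) for IL-6 STAT3KO over IL-6 and 1.71 (SE 0.31, adjusted p = 0.00194) for IL-6 over GFP. DDC STAT3KO had 16.9, 13.6 and 13.8 CPM and DDC had 13.9 and 11.8 CPM, within the GFP range or close to it.

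Agxt, the peroxisomal enzyme that turns glyoxylate into glycine, had 216, 236 and 159 CPM in IL-6 STAT3KO, 133, 131 and 64.7 CPM in IL-6, and 338 and 339 CPM in GFP. Both IL-6 groups were below GFP without overlap. It fell in IL-6 over GFP (-1.63, SE 0.38, adjusted p = 0.00907), and IL-6 STAT3KO over IL-6 was 0.90 (SE 0.35, adjusted p = 0.0801), which DESeq2 (adjusted p = 0.0449) and total-count scaling called. DDC STAT3KO had 177, 123 and 310 CPM of Agxt and DDC had 135 and 90.6 CPM. Of the glycine cleavage system, Gldc rose in IL-6 STAT3KO over IL-6 (0.96, adjusted p = 0.00574) and fell in IL-6 over GFP (-0.76, adjusted p = 0.0312), while Amt was called in neither. In IL-6 over GFP the call for Agxt was lost without GFP replicate 2 and that for Gldc without IL-6 replicate 1 or 3 or either GFP replicate.

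The 3 choline and sarcosine genes act on the route from choline to glycine. All 3 fell in IL-6 over GFP, and 2 of them, Sardh and Pipox, rose in IL-6 STAT3KO over IL-6. Sardh had 1307, 839 and 848 CPM in IL-6 STAT3KO, 336, 278 and 256 CPM in IL-6, and 776 and 807 CPM in GFP. All IL-6 STAT3KO libraries were above GFP and all IL-6 libraries below it. For Sardh the log2 fold change was 1.78 (SE 0.30, adjusted p = 0.00119) for IL-6 STAT3KO over IL-6 and -1.45 (SE 0.33, adjusted p = 0.00697) for IL-6 over GFP. Sardh was at 507, 361 and 811 CPM in DDC STAT3KO and at 498 and 370 CPM in DDC.

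Pipox, which oxidises pipecolate and sarcosine, stood at 328, 291 and 294 CPM in IL-6 STAT3KO, 142, 141 and 129 CPM in IL-6, and 335 and 328 CPM in GFP. IL-6 STAT3KO touched the GFP range and IL-6 lay below. Pipox had a log2 fold change of 1.15 (SE 0.28, adjusted p = 0.00938) for IL-6 STAT3KO over IL-6 and -1.27 (SE 0.30, adjusted p = 0.00926) for IL-6 over GFP. In DDC STAT3KO Pipox had 85.7, 122 and 222 CPM and in DDC 142 and 137 CPM. Dmgdh, which demethylates dimethylglycine, fell in IL-6 over GFP (-1.14, adjusted p = 0.0279) and was not called in IL-6 STAT3KO over IL-6 (0.64, adjusted p = 0.152), except with the compared groups alone, with total-count scaling, and without the third replicates of both IL-6 and DDC STAT3KO (adjusted p = 0.0482). In IL-6 over GFP the call for Sardh was lost without GFP replicate 2 (adjusted p = 0.0501), that for Pipox without either GFP replicate, and that for Dmgdh without any one library.

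Of the 3 histidine genes, Amdhd1 and Ftcd fell in IL-6 over GFP, and Ftcd rose in IL-6 STAT3KO over IL-6. Amdhd1, which acts on imidazolonepropionate, had 170, 121 and 134 CPM in IL-6 STAT3KO, 91.1, 84.5 and 83.0 CPM in IL-6, and 282 and 239 CPM in GFP. IL-6 STAT3KO lay between the other groups with no overlap. Amdhd1 changed by -1.60 (SE 0.28, adjusted p = 0.00177) for IL-6 over GFP, and IL-6 STAT3KO over IL-6 was 0.71 (SE 0.26, adjusted p = 0.0585), which DESeq2 (adjusted p = 0.0353), the compared groups alone and total-count scaling called. Amdhd1 had 93.5, 103 and 170 CPM in DDC STAT3KO and 172 and 103 CPM in DDC.

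Ftcd, which hands a one-carbon unit from histidine to folate, had 665, 476 and 529 CPM in IL-6 STAT3KO, 379, 380 and 343 CPM in IL-6, and 633 and 614 CPM in GFP. IL-6 lay below both groups. Ftcd had a log2 fold change of 0.60 (SE 0.20, adjusted p = 0.0418) for IL-6 STAT3KO over IL-6 and -0.76 (SE 0.22, adjusted p = 0.0226) for IL-6 over GFP. DDC STAT3KO had 345, 295 and 440 CPM of Ftcd and DDC had 266 and 253 CPM. Its call in IL-6 over GFP was lost without any one of the 5 libraries (adjusted p up to 0.125), and that in IL-6 STAT3KO over IL-6 without any one but IL-6 STAT3KO replicate 2 (adjusted p up to 0.155). Uroc1, the urocanate hydratase, was not called in any comparison, but DESeq2 called it in IL-6 STAT3KO over IL-6 (0.75, adjusted p = 0.0242) and in DDC over GFP (-0.85, adjusted p = 0.0459).

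Both proline genes changed. Prodh, the first enzyme of proline oxidation, is shown with its promoter because it was the member whose window held the STAT motif, marked in capitals. The window lies on the minus strand at chr16:18089141-18089440 (GRCm38.p6, RefSeq), and GENCODE M21 places the outermost Prodh start further upstream.

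Prodh: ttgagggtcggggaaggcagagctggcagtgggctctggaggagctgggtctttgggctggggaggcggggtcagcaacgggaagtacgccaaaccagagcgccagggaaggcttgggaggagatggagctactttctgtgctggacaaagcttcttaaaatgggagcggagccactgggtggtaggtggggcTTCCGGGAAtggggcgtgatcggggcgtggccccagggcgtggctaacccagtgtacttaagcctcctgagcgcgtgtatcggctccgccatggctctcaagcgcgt

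Prodh stood at 361, 159 and 201 CPM in IL-6 STAT3KO, 40.9, 45.8 and 41.6 CPM in IL-6, and 222 and 281 CPM in GFP. The IL-6 libraries were close together and far below the rest. Its log2 fold change was 2.49 (SE 0.28, adjusted p = 6.49e-05) for IL-6 STAT3KO over IL-6 and -2.56 (SE 0.29, adjusted p = 0.000123) for IL-6 over GFP. It had 126, 95.6 and 100 CPM in DDC STAT3KO and 85.6 and 85.3 CPM in DDC, with each DDC STAT3KO library above both DDC libraries.

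Aldh4a1, the next enzyme of the route, had 202, 162 and 145 CPM in IL-6 STAT3KO, 89.9, 75.4 and 37.7 CPM in IL-6, and 225 and 227 CPM in GFP. The groups did not overlap. For Aldh4a1 the log2 fold change was 1.32 (SE 0.30, adjusted p = 0.00614) for IL-6 STAT3KO over IL-6 and -1.74 (SE 0.32, adjusted p = 0.00227) for IL-6 over GFP. DDC STAT3KO had 171, 112 and 182 CPM and DDC had 135 and 112 CPM. Aldh4a1 shares 32.5% of its exon length with Gm21969, which had 17 counts.

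The 3 aminotransferases Got1, Gpt and Agxt2 rose in IL-6 STAT3KO over IL-6 and fell in IL-6 over GFP. Agxt2, a mitochondrial enzyme that uses glyoxylate, is shown with its promoter because its window held 3 kinds of motif searched, TATAAA, CAAAGTCCA and TTGCNNAA, in capitals on either strand. This window lies on the plus strand at chr15:10358329-10358628 (GRCm38.p6, RefSeq).

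Agxt2: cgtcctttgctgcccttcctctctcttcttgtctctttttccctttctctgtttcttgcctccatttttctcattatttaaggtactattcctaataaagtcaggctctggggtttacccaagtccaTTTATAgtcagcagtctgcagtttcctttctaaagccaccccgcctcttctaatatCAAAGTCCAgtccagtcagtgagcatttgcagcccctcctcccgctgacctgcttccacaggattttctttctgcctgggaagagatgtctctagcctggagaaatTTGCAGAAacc

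Agxt2 had 210, 161 and 184 CPM in IL-6 STAT3KO, 67.1, 59.3 and 74.8 CPM in IL-6, and 196 and 174 CPM in GFP. IL-6 STAT3KO and GFP overlapped. The log2 fold change was 1.47 (SE 0.18, adjusted p = 0.000159) for IL-6 STAT3KO over IL-6 and -1.47 (SE 0.20, adjusted p = 0.000361) for IL-6 over GFP. On the diet it was near GFP, at 228, 158 and 196 CPM in DDC STAT3KO and 142 and 152 CPM in DDC.

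Gpt, alanine aminotransferase, had 528, 427 and 300 CPM in IL-6 STAT3KO, 218, 180 and 122 CPM in IL-6, and 424 and 465 CPM in GFP. Gpt had a log2 fold change of 1.27 (SE 0.26, adjusted p = 0.00342) for IL-6 STAT3KO over IL-6 and -1.36 (SE 0.28, adjusted p = 0.00413) for IL-6 over GFP. It stood at 362, 340 and 432 CPM in DDC STAT3KO and 348 and 298 CPM in DDC, where the groups overlapped. Got1, the cytosolic aspartate aminotransferase, changed by 1.59 for IL-6 STAT3KO over IL-6 and by -1.68 for IL-6 over GFP, the call in IL-6 over GFP being lost without GFP replicate 2 (adjusted p = 0.0795).

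Aass, which starts lysine breakdown, had 468, 506 and 342 CPM in IL-6 STAT3KO, 171, 162 and 151 CPM in IL-6, and 436 and 670 CPM in GFP. The IL-6 libraries lay below both overlapping groups. Its log2 fold change was 1.44 (SE 0.25, adjusted p = 0.00135) for IL-6 STAT3KO over IL-6 and -1.78 (SE 0.27, adjusted p = 0.000747) for IL-6 over GFP. In DDC STAT3KO it had 203, 236 and 333 CPM and in DDC 219 and 168 CPM.

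The 4 branched-chain genes all fell in IL-6 over GFP, and 3 of them, all but Bckdhb, rose in IL-6 STAT3KO over IL-6. Mccc1, a subunit of the leucine-route carboxylase, had 41.2, 35.8 and 41.0 CPM in IL-6 STAT3KO, 19.2, 18.0 and 15.8 CPM in IL-6, and 55.5 and 47.4 CPM in GFP. The 3 groups were separate, with IL-6 STAT3KO below GFP. For Mccc1 the log2 fold change was 1.16 (SE 0.19, adjusted p = 0.000909) for IL-6 STAT3KO over IL-6 and -1.54 (SE 0.21, adjusted p = 0.000305) for IL-6 over GFP. DDC STAT3KO had 29.5, 24.3 and 38.5 CPM of Mccc1 and DDC had 19.6 and 14.5 CPM, again without overlap.

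Bckdha, a subunit of the branched-chain keto acid dehydrogenase, had 61.7, 52.4 and 62.8 CPM in IL-6 STAT3KO, 25.0, 27.1 and 36.6 CPM in IL-6, and 78.6 and 86.1 CPM in GFP. These groups too were separate. For Bckdha the log2 fold change was 1.00 (SE 0.25, adjusted p = 0.0121) for IL-6 STAT3KO over IL-6 and -1.48 (SE 0.27, adjusted p = 0.00234) for IL-6 over GFP. It had 22.6, 30.0 and 49.9 CPM in DDC STAT3KO and 35.3 and 37.4 CPM in DDC. Bckdha shares 61.7% of its exon length with B3gnt8 on the other strand, which had 169 counts over all libraries against 10038 for Bckdha. Smaller overlaps, of 0.858 to 6.95% of exon length, were found for Agxt2, Bhmt, Dmgdh, Mccc1, Sardh and Slc7a2. In IL-6 STAT3KO over IL-6 the call for Bckdha was lost without IL-6 replicate 1 or 2, and that for Dbt without IL-6 STAT3KO replicate 1 or 2 or IL-6 replicate 3. In IL-6 over GFP Dbt and Bckdhb lost theirs without either GFP replicate.

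In DDC hepatocytes 25 of 45 members fell and 0 rose relative to GFP hepatocytes, where 8.29% of all genes tested were called lower and 10.4% higher. The median log2 fold change of the members was -1.26. At an unadjusted p under 0.05, 0 members were higher in DDC than in GFP, and DESeq2 called none higher. The called members included all 5 tyrosine, all 5 tryptophan and all 4 branched-chain genes, 4 of 8 urea cycle genes (Otc, Asl, Arg1 and Slc25a13) and 1 of 6 methionine genes (Gnmt). The pathways were not tested against each other, and the median of the methionine genes, -1.31, was close to those of the tyrosine genes (-1.41) and branched-chain genes (-1.37). At an unadjusted p under 0.05 there were 5 of 6 methionine and 6 of 8 urea cycle genes, with the share of all genes at that cut not given here. The calls for Bckdha, Bckdhb, Dbt, Asl, Arg1 and Slc25a13 were each lost without any one of the 4 libraries. So were those for Tat, Hpd, Fah, Gstz1, Kmo, Agxt and Pipox. The largest falls were Gnmt (-2.51, SE 0.42, adjusted p = 0.00338), Got1 (-2.34, SE 0.41, adjusted p = 0.00388) and Hpd (-2.20, SE 0.55, adjusted p = 0.0192). For 42 members both DDC libraries lay below both GFP libraries, and 34.8% of all genes tested did the same. The count of 25 became 11 without DDC replicate 1, 6 without DDC replicate 2, 12 without GFP replicate 1 and 10 without GFP replicate 2. Shares of all genes called in these fits are not given here. Without DDC replicate 2 the 6 called were Afmid, Gnmt, Got1, Hgd, Mccc1 and Tdo2, which were called in every alternative run. This comparison shares the GFP libraries with that of IL-6 over GFP.

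No member passed the test between DDC STAT3KO and DDC hepatocytes. With edgeR 0 members were called higher and 0 lower, and 0.0% of all genes tested were called in either direction. DESeq2 called 0 of the 41 to which it gave an adjusted p. With edgeR 4 members had an unadjusted p under 0.05, the share of all genes at that cut not being given here. The median was 0.37, and 42 of 45 members had a positive log2 fold change. Without DDC STAT3KO replicate 3 the median was 0.12 and 28 of 45 were positive. In 8 members, Slc25a15, Hgd, Ftcd, Prodh, Got1, Agxt2, Dbt and Mccc1, all 3 DDC STAT3KO libraries lay above both DDC libraries, which 9.35% of all genes tested did. Got1 and Hpd had the highest values (0.96 each), with Got1 at 162, 123 and 133 CPM in DDC STAT3KO and 60.0 and 83.6 CPM in DDC. The value of Hpd was 0.09 without DDC STAT3KO replicate 3.

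Relative to GFP hepatocytes, 16 members fell and 0 rose in DDC STAT3KO hepatocytes, where 7.39% of all genes were called lower and 8.50% higher. The median was -0.74. In 32 members all DDC STAT3KO libraries lay below both GFP libraries, against 22.7% of all genes. The count depended on single libraries, being 31 without DDC STAT3KO replicate 3, 8 without DDC STAT3KO replicate 2, 6 without GFP replicate 1 and 2 without GFP replicate 2. Shares of all genes called in these fits are not given here. Afmid (-1.35, adjusted p = 0.00348) and Kynu (-1.20, adjusted p = 0.00367) were called in each of these fits.

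IL-6 and DDC hepatocytes were then compared with each other. In this comparison 6 members were lower and 2 higher in IL-6 than in DDC, with 5.55% of all genes lower and 6.03% higher, and the median over the members was -0.02. The 6 lower members were Cps1 (-1.98), Afmid (-1.58), Agxt2 (-1.13), Otc (-1.06), Slc25a13 (-1.01) and Prodh (-1.0). Sdsl (1.88) and Bhmt (1.20) were higher. The libraries of the groups did not overlap for 16 members that were lower and 8 that were higher in IL-6, as for 25.6% and 24.0% of all genes tested. The 8 calls became 4 without IL-6 replicate 2 or DDC replicate 1 and 5 without DDC replicate 2, and Afmid, Agxt2 and Sdsl were called in every alternative run. Scaled by total counts, which moved the median of all genes by -0.47, 1 member was higher and 17 were lower. With that scaling 522 of all genes tested were called higher and 3075 lower, against 865 and 796 in the main fit. The larger count of lower members thus came with a larger count of lower genes in general.

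The difference between the STAT3KO effect with the IL-6 plasmid and that on the DDC diet was tested for each member, and it was called for 12. It was positive in 11 and negative in 1, Sdsl (-1.63, SE 0.40, adjusted p = 0.0261), where 4.20% and 4.08% of all genes were called in those directions. The median over the members was 0.89. The largest were Afmid (2.93, SE 0.32, adjusted p = 0.000312), Cps1 (2.55, SE 0.65, adjusted p = 0.0331), Prodh (2.17, SE 0.39, adjusted p = 0.006) and Cth (2.11, SE 0.51, adjusted p = 0.0259). Otc (1.96), Ass1 (1.75), Tdo2 (1.72), Slc25a13 (1.37), Agxt2 (1.07), Hgd (1.00) and Kmo (0.98) followed. Afmid, Otc, Prodh and Slc25a13 were called in all alternatives run.

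That count of 12 was moved by single libraries as well. It was 5, 7 and 7 without IL-6 STAT3KO replicates 1, 2 and 3, 6 and 4 without IL-6 replicates 1 and 2, 5 and 6 without DDC replicates 1 and 2, and 22 without DDC STAT3KO replicate 3. Shares of all genes called in these fits are not given here. The groups compared in this difference also differed in more than the deletion, since IL-6 mice were wild type and DDC mice were floxed with AAV-TBG-GFP.

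**Figure D4:**
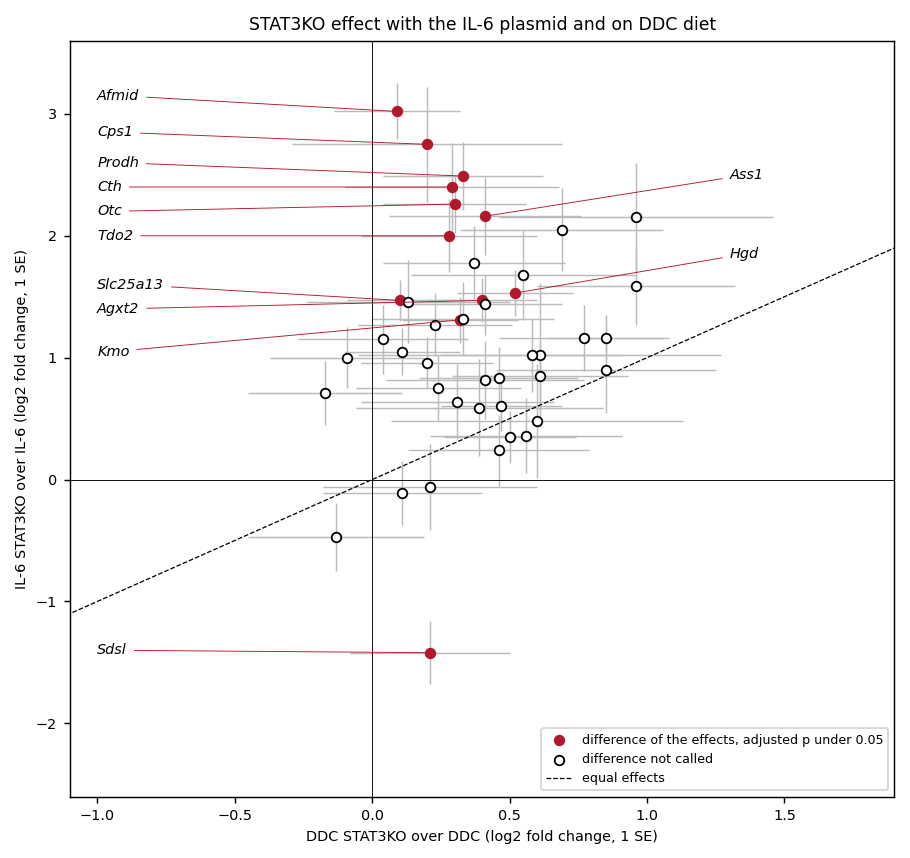
Log2 fold change of each member for IL-6 STAT3KO over IL-6 (vertical axis) against DDC STAT3KO over DDC (horizontal axis), with bars of 1 SE. The dashed line marks equal effects. The 12 red members had a called difference between the effects: Afmid, Cps1 and Prodh lie far above the line and Sdsl lies below it.

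Genes of the same pathways outside the 45 gave a mixed picture. Of all genes tested, 13% were called higher and 13.4% lower in IL-6 STAT3KO over IL-6. The shares were 13.7% and 12.2% in IL-6 over GFP, and 10.4% and 8.29% in DDC over GFP. Of 18 further lysine and branched-chain genes, 13 rose and 0 fell in IL-6 STAT3KO over IL-6, 0 rose and 16 fell in IL-6 over GFP, and 0 rose and 13 fell in DDC over GFP. Acadsb, a branched-chain acyl-CoA dehydrogenase, changed by -2.17 and Hibadh, of the valine route, by -2.27 in IL-6 over GFP. Of 12 further aromatic genes, 7 rose and 0 fell in IL-6 STAT3KO over IL-6, and 0 rose and 6 fell both in IL-6 over GFP and in DDC over GFP.

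Of 15 further glycine, serine and histidine genes, 6 rose and 4 fell in IL-6 STAT3KO over IL-6, 3 rose and 5 fell in IL-6 over GFP, and 3 rose and 6 fell in DDC over GFP. Psat1, of serine synthesis, had 0.805, 3.04 and 0.992 CPM in IL-6 STAT3KO, 33.6, 21.6 and 38.0 CPM in IL-6, and 0.512 and 0.413 CPM in GFP, with a log2 fold change of -4.27 for IL-6 STAT3KO over IL-6 and 6.04 for IL-6 over GFP. Of 9 further urea cycle and nitrogen genes tested, 4 rose and 2 fell in IL-6 STAT3KO over IL-6, 2 rose and 4 fell in IL-6 over GFP, and 2 rose and 3 fell in DDC over GFP. Aldh18a1, which makes the precursor of proline and ornithine from glutamate, had 0.991, 2.11 and 1.46 CPM in IL-6 STAT3KO, 15.5, 14.8 and 21.2 CPM in IL-6, and 0.064 and 0.206 CPM in GFP, where it rested on 4 counts in all. It fell by 3.49 on the log2 scale in IL-6 STAT3KO over IL-6, and it was called higher in IL-6 STAT3KO than in GFP. Of 15 further sulfur and one-carbon genes, 5 rose and 1 fell in IL-6 STAT3KO over IL-6. In IL-6 over GFP and in DDC over GFP 1 rose and 2 fell, which is close to the shares of all genes.

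Among 16 regulators of hepatocyte metabolism, 4 rose and 1 fell in IL-6 STAT3KO over IL-6, where 13% of all genes rose and 13.4% fell. In IL-6 over GFP 1 rose and 5 fell, against 13.7% and 12.2% of all genes. In DDC over GFP 0 rose and 4 fell, against 10.4% and 8.29% of all genes. Klf15, a factor known to drive amino acid breakdown genes in fasting liver, had 216, 172 and 171 CPM in IL-6 STAT3KO, 84.1, 93.1 and 63.8 CPM in IL-6, and 297 and 298 CPM in GFP. It had 71.1, 119 and 151 CPM in DDC STAT3KO and 65.8 and 114 CPM in DDC. Its log2 fold change was 1.21 for IL-6 STAT3KO over IL-6 and -1.89 for IL-6 over GFP, both called. Cebpa fell in IL-6 over GFP (-1.61) and in DDC over GFP (-1.65), and Cebpb fell in IL-6 STAT3KO over IL-6 (-1.92). Cebpb was also called lower than GFP in DDC (-2.83) and DDC STAT3KO (-2.08). In IL-6 STAT3KO over GFP it missed the threshold (-2.2, adjusted p = 0.0665). Of 10 genes of the amino acid stress response and uptake, 0 rose and 2 fell in IL-6 STAT3KO over IL-6. In IL-6 over GFP 3 rose and 0 fell, and in DDC over GFP 3 rose and 0 fell. Whether the counts of regulators and stress response genes differed from the shares of all genes was not tested. Asns, which makes asparagine, rose by 2.93 and the amino acid carrier Slc7a5 by 2.54 in IL-6 over GFP.

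In the 12 libraries of sorted liver immune cells, 44 of 45 members reached 10 CPM in at least 1 library. Those libraries had 3817794 to 12945663 counts and 7.07 to 2207 CPM of Alb, so hepatocyte RNA was present in varying amounts. Asl had 39.7 to 88.3 CPM and Got1 20.9 to 101 CPM across all of them, Arg1 2.81 to 238 CPM and Cps1 0.968 to 25.3 CPM. In the library with the least Alb, Ly6Chigh replicate 1, Asl stood at 48.5 CPM, Got1 at 36.0, Haao at 17.5 and Slc25a13 at 16.3 CPM. These levels are a description, and no test was made across the immune libraries.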

How the data were processed

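Hepatocytes were isolated by perfusion and sorted, per the labels' protocols, with library preparation by a TruSeq RNA kit. Per the submitters' processing notes, STAR, HTSeq, DESeq2 and mm10 were used, with versions not given in the sources used here. The deposited values are raw counts per gene by Ensembl identifier, and the authors' normalization of them is not in the table. Here, symbols came from GENCODE M21 (18626 of 18668 genes). Counts of all 13 hepatocyte libraries were fitted in 1 model without a block (edgeR 4.0.16, R 4.3.3, TMM scaling, filterByExpr, quasi-likelihood F test, 8 residual degrees of freedom). The Benjamini-Hochberg adjustment covered all 14339 genes. DESeq2 1.42.0, other scalings, no filter, a replicate block, the compared groups alone and leaving out each library were alternatives. Levels are TMM-scaled CPM with SD between libraries. Depth limits only the low members, such as Afmid and Sdsl.

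The members and lists were chosen with earlier results of these data known. Values per library are given for the members with the smallest adjusted p of each pathway in IL-6 over GFP (up to 2 a pathway) and for those called against the rest; Arg1, Cps1, Mat1a, Tdo2, Nags and Got1 were added after their values were seen. Promoter windows and motif matches came from RefSeq (GRCm38.p6). Immune cell libraries were used for levels only.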

Additional observations from a re-analysis of the deposited data

Results flagged for a closer look

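For 12 members the STAT3KO effect with the IL-6 plasmid differed from that on the DDC diet by edgeR's interaction test. Genotype and virus differed together with the deletion in the IL-6 arm only, so these cannot be told apart. Of the 12 members 4 (Afmid, Otc, Prodh and Slc25a13) were called in every alternative. The difference of the log2 fold changes was 2.93 for Afmid, 2.55 for Cps1, 2.17 for Prodh, 2.11 for Cth, 1.96 for Otc, 1.75 for Ass1, 1.72 for Tdo2, 1.37 for Slc25a13, 1.07 for Agxt2, 1.00 for Hgd, 0.98 for Kmo and -1.63 for Sdsl. For Sdsl all IL-6 STAT3KO libraries lay under all IL-6 libraries, while DDC STAT3KO and DDC overlapped.

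The EGFP transgene, a measure outside the member genes, stood at 486 CPM in IL-6 replicate 3. IL-6 replicates 1 and 2 had 9.24 and 5.73 CPM of it, and GFP replicates 2.18 and 2.41 CPM. The DDC libraries (given AAV-TBG-GFP) held 1190 and 1230 CPM. IL-6 STAT3KO and DDC STAT3KO libraries held 0 to 1.34 CPM. Il6 stood at 351 CPM in replicate 3 of IL-6, and replicates 1 and 2 had 4.89 and 3.21 CPM.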

How the results depend on the processing

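Of the members called, 22 of 36 in IL-6 over GFP, 26 of 31 in IL-6 STAT3KO over IL-6, 6 of 25 in DDC over GFP, 2 of 16 in DDC STAT3KO over GFP, 3 of 8 in IL-6 over DDC and 4 of 12 in the difference of the STAT3KO effects were called with the same sign in every alternative. None changed sign. Leaving out each library gave 22 to 32 calls in IL-6 over GFP, 27 to 28 in IL-6 STAT3KO over IL-6, 0 to 0 in IL-6 STAT3KO over GFP and in DDC STAT3KO over DDC, 6 to 12 in DDC over GFP, 2 to 31 in DDC STAT3KO over GFP, 4 to 6 in IL-6 over DDC and 4 to 22 in the difference. With total counts there was 1 call in IL-6 STAT3KO over GFP, 18 in IL-6 over DDC and 21 in the difference. Over all genes tested, total counts gave 522 higher and 3075 lower in IL-6 over DDC, against 865 and 796 in the main fit. In the difference they gave 1011 higher and 344 lower, against 602 and 585 in the main fit. With the compared groups alone there were 3 calls in IL-6 STAT3KO over GFP, 4 in DDC STAT3KO over GFP and 7 in the difference. DESeq2 gave 2 calls in IL-6 STAT3KO over GFP. Without IL-6 replicate 3 and DDC STAT3KO replicate 3 together, a choice made after seeing the data, DDC STAT3KO over GFP gave 34 calls and the difference 24. Counts over all genes in the fits that left out libraries are not given here. Whether the shifts were particular to the members was not tested, nor was their cause. Total-count scaling moved the median of all genes by -0.22 in IL-6 over GFP, 0.23 in IL-6 STAT3KO over IL-6, 0.24 in DDC over GFP, 0.18 in DDC STAT3KO over GFP and 0.29 in the difference.

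Replicate numbers are shared between groups. The deviations of same-numbered libraries had a median r of 0.0272 (23 pairs, r -0.187 to 0.29, 7 over 0.1). For libraries with different numbers the median r was -0.0318 (44 pairs, r -0.319 to 0.307, 7 over 0.1). Within DDC and within GFP the r values of the replicates were equal in size and opposite in sign, so the pairs are not independent. Whether same-numbered libraries were handled together therefore cannot be decided from these values. With a replicate block there were 35 calls in IL-6 over GFP, 30 in IL-6 STAT3KO over IL-6, 27 in DDC over GFP, 20 in DDC STAT3KO over GFP, 6 in IL-6 over DDC, 10 in the difference and 0 in the other comparisons.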
